A study of Mus musculus with 14 samples.

Results

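The enzymes that build, sulfate and trim glycosaminoglycans, together with the hyaluronan synthases, were followed in cells sorted from embryonic mouse limbs. They were taken by gene symbol: the exostosins (Ext, Extl), xylosyltransferases (Xylt), chondroitin polymerases (Chsy, Chpf, Csgalnact), carbohydrate sulfotransferases (Chst), heparan sulfate sulfotransferases (Ndst, Hs2st1, Hs3st, Hs6st), endosulfatases (Sulf), hyaluronan synthases (Has), the sulfate donor synthases (Papss), and Ust, Dse, Glce and Ugdh. This gave 53 of the 21734 genes with a symbol on the array, each represented by its brightest probe set. The symbol rule also takes in Chst4, Chst8, Chst9 and Chst10, whose products are known mainly for sulfating other glycans, such as selectin ligands, pituitary hormone sugars and the HNK-1 epitope.

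RNA was hybridised to Affymetrix Mouse Gene 1.0 ST arrays, 1 array per sorted sample, and all values below are log2 intensities unless stated otherwise. The cells came from limbs of C57BL/6 embryos at embryonic day 16.5, labelled by the submitters as osteochondroprogenitors, and every sorted group carried the surface protein CD9. OCP1 cells were CD73+ Thy1- (3 arrays), OCP2 cells CD73- Thy1- (3 arrays), OCP3 cells CD73- Thy1+ (4 arrays) and OCP4 cells CD73+ Thy1+ (4 arrays), where CD73 is the ecto-nucleotidase encoded by Nt5e and Thy1 is a glycosylphosphatidylinositol-anchored surface protein. The groups are defined by surface antigens alone, and no statement of separate litters or embryos accompanies the replicates, so the p-values reflect only how much these arrays vary, which may be technical.

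Glycosaminoglycans are long sugar chains of the extracellular matrix and cell surface. Xylosyltransferases start chains on a core protein, a shared linker follows, and the next sugar decides whether the chain becomes chondroitin or heparan sulfate. Polymerases then extend it and sulfotransferases decorate it, using the donor PAPS. Chondroitin sulfate on aggrecan gives cartilage its hydration, heparan sulfate binds growth factors such as hedgehog, FGF and BMP proteins in the growth plate, and hyaluronan is made without a core protein at the plasma membrane. In humans, loss of EXT1 or EXT2 causes multiple osteochondromas, and defects of PAPSS2 cause skeletal dysplasia.

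The sort markers followed the labels: Nt5e averaged 12.29, 9.30, 9.46 and 13.19 in OCP1 to OCP4 and Thy1 averaged 9.33, 9.60, 12.60 and 13.22, while Cd9 means lay between 10.60 (OCP4) and 11.52 (OCP1). Arrays of a group correlated at r = 0.9955 to 0.9979 over all genes and arrays of different groups at 0.9843 to 0.9945. The median intensity per array lay between 328.1 and 346.8. Arrays give no read depth, and the number of arrays limits the precision.

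Enzyme expression differed among the groups more often than that of the average gene. By limma's moderated F-test over the 4 groups, 41 of the 53 enzymes (77.4%) had a Benjamini-Hochberg adjusted p under 0.05, against 39.5% of all genes. The enzymes were also brighter than most genes, with a median of the mean log2 intensity of 10.51 against 9.00. Among genes above the 95th percentile of olfactory receptor genes (log2 intensity 7.49), taken as a level for probe sets with little signal, 38 of 47 enzymes (80.9%) passed, against 55.5% of such genes. Group means lay at least 0.7 log2 units apart for 16 enzymes that passed (30.2%), against 9.37% of all genes. Just outside that threshold were Has1 (0.70 after rounding) and Chsy3 (0.68), and just inside were Chst10 (0.73), Hs3st6 (0.77) and Hs3st5 (0.77). The 12 enzymes that did not pass were Chst4, Chst8, Chst9, Chst13, Dse, Extl2, Glce, Has3, Hs3st2, Hs3st4, Ndst2 and Papss1, with group means 0.03 (Extl2) to 0.22 (Hs3st4) apart.

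The 41 enzymes were highest most often in OCP1, which had the highest mean for 17 of them (41.5%, against 23.4% of all genes past the F-test). OCP4 had it for 14, a share near that of all such genes (34.1%, against 32.3%), OCP2 for 6 (14.6%, against 20.6%) and OCP3 for 4 (9.76%, against 23.7%). The lowest mean lay in OCP3 for 15 (36.6%, against 28.1%), in OCP4 for 12 (29.3%, against 31.9%), in OCP1 for 8 (19.5%, against 29.0%) and in OCP2 for 6 (14.6%, against 11.1%). In OCP1, every array lay above every other array for 10 enzymes, 18.9% of the 53 against 4.05% of all genes. The same held in OCP4 for 8 enzymes (15.1% against 6.76%), in OCP3 for Chst1, Chst7 and Ndst3 (5.66% against 4.38%) and in OCP2 for Ndst4 alone (1.89% against 2.95%). OCP3 arrays lay below all others for 6 enzymes (11.3% against 3.36%), OCP4 arrays also for 6 (11.3% against 5.85%), OCP1 arrays for Chst2, Chst7, Extl3 and Ndst3 (7.55% against 4.56%) and OCP2 arrays for Has1 and Hs3st3a1 (3.77% against 1.09%).

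**Figure D1:**
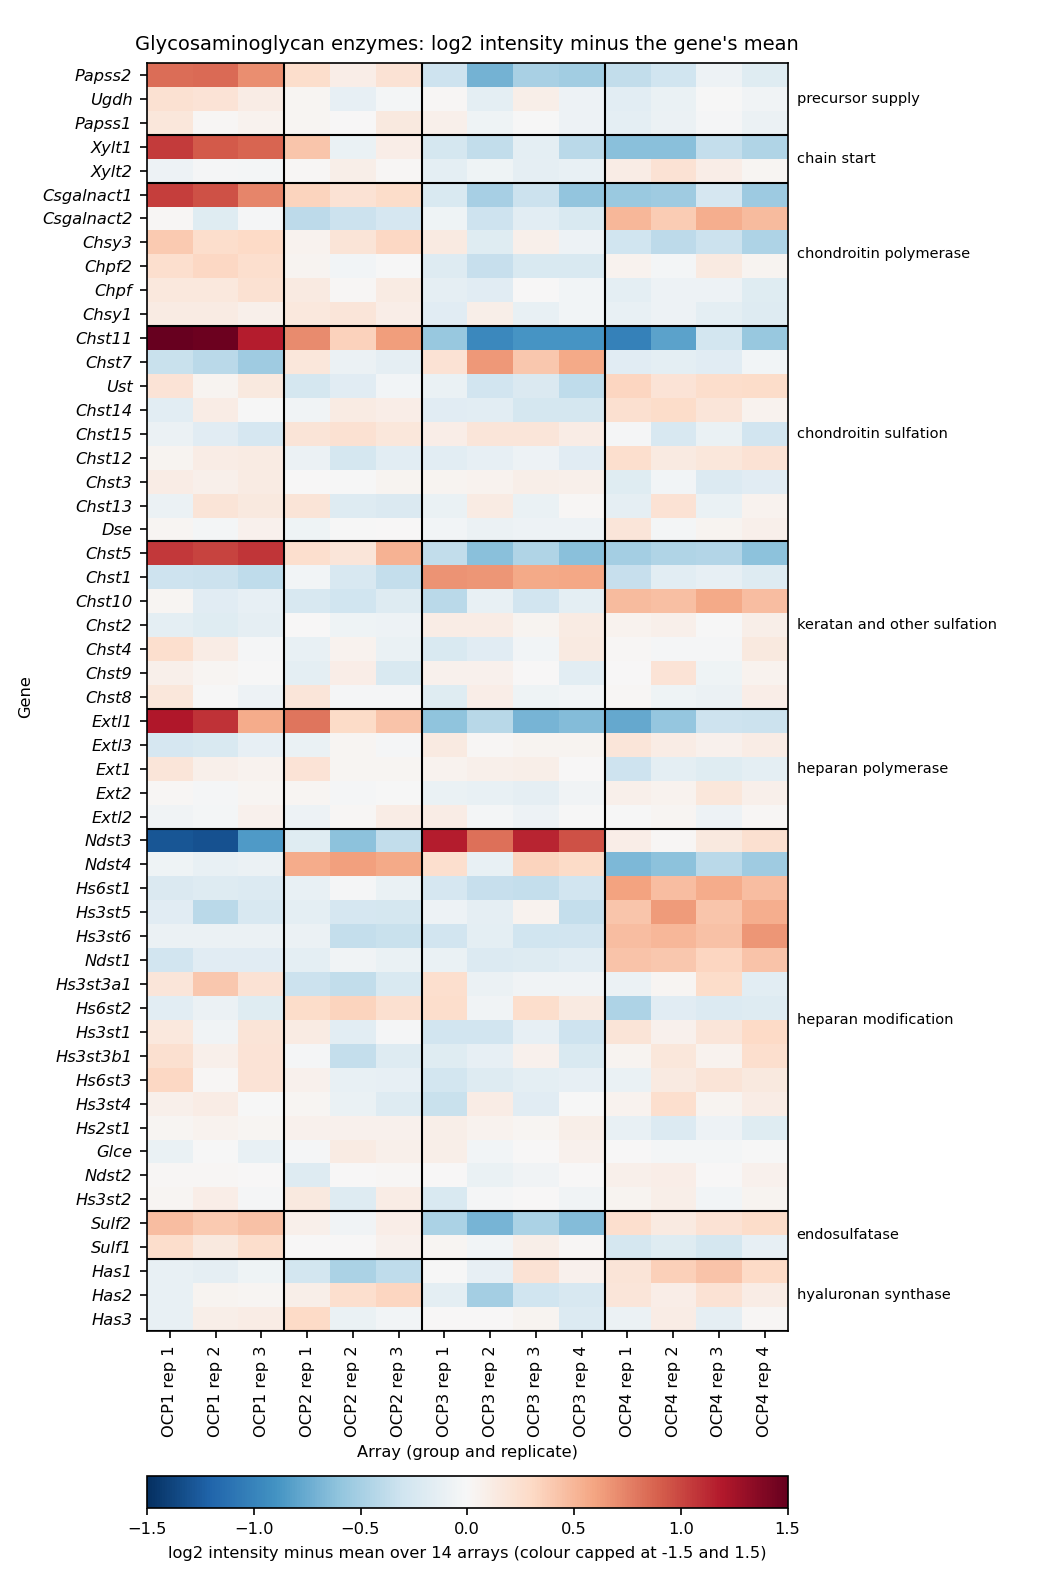
Log2 intensity of each of the 53 enzymes (rows, grouped by role) in each of the 14 arrays (columns, grouped by sorted population), minus the gene's own mean, with red above and blue below it. Examples are Chst11, Chst5, Extl1, Xylt1, Csgalnact1 and Papss2 with red in OCP1, Ndst4 with red in OCP2, Ndst3 and Chst1 with red in OCP3, and Hs6st1, Hs3st5 and Hs3st6 with red in OCP4.

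Promoter sequences are given as examples for 5 enzymes with a wide range of group means, too few to relate sequence to expression pattern. They run from 250 bases before to 50 bases after the RefSeq start (build GRCm38.p6), 5′ to 3′ on the gene's strand, with capitals marking the E-box CANNTG, the motif bound by basic helix-loop-helix factors. Chst11, Chst5 and Extl1 were highest in OCP1, Ndst3 (the first of its 2 listed starts) in OCP3 and Hs6st1 in OCP4.
Chst11, chr10:82985247-82985546, plus strand: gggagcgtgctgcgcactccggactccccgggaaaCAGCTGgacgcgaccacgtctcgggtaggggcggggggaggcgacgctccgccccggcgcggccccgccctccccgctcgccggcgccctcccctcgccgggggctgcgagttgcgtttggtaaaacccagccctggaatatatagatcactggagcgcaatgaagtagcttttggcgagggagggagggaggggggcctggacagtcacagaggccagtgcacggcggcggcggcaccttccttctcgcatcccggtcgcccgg
Chst5, chr8:111910150-111910449, minus strand: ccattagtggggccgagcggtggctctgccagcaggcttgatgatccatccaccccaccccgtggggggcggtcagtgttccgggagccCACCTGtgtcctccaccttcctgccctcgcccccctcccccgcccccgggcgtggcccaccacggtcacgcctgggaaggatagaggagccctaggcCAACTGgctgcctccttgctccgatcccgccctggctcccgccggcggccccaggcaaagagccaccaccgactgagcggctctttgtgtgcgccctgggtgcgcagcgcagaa
Extl1, chr4:134372498-134372797, minus strand: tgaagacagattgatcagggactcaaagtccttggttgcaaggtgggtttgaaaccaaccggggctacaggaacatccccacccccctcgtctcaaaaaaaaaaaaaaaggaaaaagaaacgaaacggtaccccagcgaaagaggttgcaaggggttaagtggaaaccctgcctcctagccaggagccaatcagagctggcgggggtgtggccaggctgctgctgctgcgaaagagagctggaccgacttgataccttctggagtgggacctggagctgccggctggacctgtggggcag
Ndst3, chr3:123672428-123672727, minus strand: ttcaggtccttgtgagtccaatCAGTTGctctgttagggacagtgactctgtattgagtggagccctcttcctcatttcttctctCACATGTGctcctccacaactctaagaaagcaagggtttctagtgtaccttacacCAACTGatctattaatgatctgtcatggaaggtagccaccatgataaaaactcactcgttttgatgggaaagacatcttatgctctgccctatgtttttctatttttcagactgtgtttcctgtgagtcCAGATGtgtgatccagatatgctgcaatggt
Hs6st1, chr1:36068150-36068449, plus strand: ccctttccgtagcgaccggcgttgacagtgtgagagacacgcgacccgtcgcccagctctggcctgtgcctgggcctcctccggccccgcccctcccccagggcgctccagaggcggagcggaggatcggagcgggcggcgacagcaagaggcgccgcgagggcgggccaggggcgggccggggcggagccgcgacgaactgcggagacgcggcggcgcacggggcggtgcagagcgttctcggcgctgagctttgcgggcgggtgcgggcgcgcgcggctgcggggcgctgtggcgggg
Base composition differed widely among these 5, with G and C making up 71.0% in Chst11, 70.7% in Chst5, 55.3% in Extl1, 43.0% in Ndst3 and 78.0% in Hs6st1. Ndst3 held 5 E-boxes, 2 of them overlapping, Chst5 held 2, Chst11 held 1, and none were found in Extl1 and Hs6st1. Of the 53 enzymes, 41 matched a promoter in the RefSeq table. The E-box was present in 21 of them (51.2%), against 72.1% of all 27025 promoters in the table (1 per gene). The Sox core ACAAT occurred, on either strand, in 4 (9.76%, against 31.6%), the TATA box TATAAA in 2 (4.88%, against 14.2%) and the Smad core CAGAC in 20 (48.8%, against 49.7%). The median G and C content of the 41 promoters was 66.3%, against 52.7% over all promoters, and its part in these motif shares was not tested.

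Of the 3 genes for sulfate and uronic acid donors, Papss2 differed most between groups. Papss2, the PAPS synthase whose loss stunts the skeleton in mice, had log2 intensities of 13.29, 13.31 and 13.15 in OCP1, 12.72, 12.55 and 12.67 in OCP2, 12.14, 11.75, 11.97 and 11.93 in OCP3, and 12.08, 12.16, 12.38 and 12.27 in OCP4. The OCP1 arrays lay above all others, OCP2 came next without overlap, and OCP3 and OCP4 overlapped. OCP1 exceeded OCP3 by 1.30 ± 0.09 (log2 difference ± standard error, 2.47-fold, adjusted p = 9.33e-08) and OCP2 by 0.60 ± 0.10 (1.52-fold, adjusted p = 0.000871). OCP4 exceeded OCP3 by 0.28 ± 0.08 (adjusted p = 0.0219), a call that ended without OCP3 replicate 2 or 4 or without OCP4 replicate 3 or 4 (adjusted p = 0.0505 to 0.0680). Ugdh, which makes UDP-glucuronic acid, also had all OCP1 arrays above the rest, at 12.78 ± 0.06 (SD, n = 3) against means of 12.52 to 12.57, but its OCP1 minus OCP2 difference did not pass (0.22, adjusted p = 0.0506) and it did not pass the F-test without OCP1 replicate 1 or 2 (adjusted p = 0.0792 and 0.0969). Papss1, the paralog of Papss2, had means of 10.99 to 11.15 and did not pass the F-test.

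The start of chains differed between the paralogous xylosyltransferases. Xylt1 read 12.71, 12.58 and 12.54 in OCP1, 12.08, 11.56 and 11.76 in OCP2, 11.40, 11.29, 11.51 and 11.26 in OCP3, and 11.03, 11.04, 11.30 and 11.21 in OCP4. OCP1 was separate from every other group, OCP2 arrays lay above all Thy1+ arrays, and OCP3 and OCP4 overlapped. OCP4 was lower than OCP1 by a log2 difference of -1.47 ± 0.11 (2.76-fold, adjusted p = 1.69e-07), and OCP3 lower than OCP2 by -0.43 ± 0.11 (adjusted p = 0.0131), the latter not past the threshold without OCP2 replicate 1 (adjusted p = 0.0709). Xylt2 means stayed within 0.23 log2 units, from 10.93 (OCP3) to 11.16 (OCP4).

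All 6 chondroitin polymerase genes passed the F-test (39.5% of all genes did), and 4 of them had their highest mean in OCP1 (23.4% of all genes past the F-test did). Csgalnact1, which adds the first N-acetylgalactosamine and which mice need for normal cartilage, read 10.79, 10.71 and 10.49 in OCP1, 10.09, 9.97 and 10.03 in OCP2, 9.53, 9.26, 9.44 and 9.17 in OCP3, and 9.20, 9.22, 9.51 and 9.21 in OCP4. OCP1 and OCP2 were each separate from the Thy1+ groups, which overlapped. The OCP1 minus OCP3 difference was 1.32 ± 0.10 (2.49-fold, adjusted p = 2.37e-07) and the OCP1 minus OCP2 difference 0.63 ± 0.11 (1.55-fold, adjusted p = 0.00135). Its paralog Csgalnact2 had the opposite peak, with 10.92, 10.72 and 10.89 in OCP1, 10.51, 10.58 and 10.65 in OCP2, 10.84, 10.59, 10.75 and 10.68 in OCP3, and 11.40, 11.28, 11.45 and 11.38 in OCP4. All OCP4 arrays lay above all others, and the other 3 groups lay close together. OCP4 exceeded OCP3 by 0.66 ± 0.06 (1.58-fold, adjusted p = 1.72e-06) and OCP1 by 0.53 ± 0.07 (1.45-fold, adjusted p = 3.77e-05). The polymerase subunits changed less: Chsy3 fell from 11.20 ± 0.07 in OCP1 (n = 3) to 10.51 ± 0.07 in OCP4 (SD, n = 4, adjusted p = 1.52e-05), while Chpf2 was highest in OCP1 (11.15) and lowest in OCP3 (10.63), and Chpf and Chsy1 means lay within 0.30 log2 units.

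Among chondroitin sulfotransferases the widest spread of all 53 enzymes was that of Chst11, the chondroitin 4-O-sulfotransferase required for growth plate cartilage in mice. It read 12.10, 11.95 and 11.66 in OCP1, 11.19, 10.83 and 11.11 in OCP2, 9.91, 9.51, 9.59 and 9.60 in OCP3, and 9.47, 9.68, 10.20 and 9.91 in OCP4. OCP1 stood above OCP2, and OCP2 above both Thy1+ groups, with no overlap, whereas OCP3 and OCP4 overlapped. OCP1 exceeded OCP3 by 2.25 ± 0.16 (4.76-fold, adjusted p = 1.11e-07), OCP4 was below OCP1 by -2.09 ± 0.16 (4.26-fold, adjusted p = 2.04e-07), and OCP1 exceeded OCP2 by 0.86 ± 0.17 (1.82-fold, adjusted p = 0.00398).

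Other 4-O-sulfotransferases did not share this range. Chst12 was highest in OCP4 (12.14 ± 0.05, SD, n = 4) and lowest in OCP2 (11.78 ± 0.09, n = 3), and Chst13 did not pass the F-test. Chst14, which sulfates dermatan, was highest in OCP4 (12.24) and lowest in OCP3 (11.84). Of the 6-O-sulfotransferases, Chst3, the main chondroitin 6-O-sulfotransferase, ranged from 8.85 in OCP4 to 9.09 in OCP1. Chst7 read 7.01, 6.94 and 6.81 in OCP1, 7.52, 7.26 and 7.21 in OCP2, 7.56, 8.00, 7.75 and 7.92 in OCP3, and 7.18, 7.20, 7.18 and 7.31 in OCP4. Its OCP3 arrays were above and its OCP1 arrays below all others, while its mean over all arrays, 7.35, lay under the olfactory receptor level of 7.49. OCP3 exceeded OCP2 by 0.47 ± 0.10 (adjusted p = 0.00424) and OCP4 was below OCP3 by -0.59 ± 0.09 (adjusted p = 0.000196). The Chst7 difference of OCP1 minus OCP2 (-0.41, adjusted p = 0.0222) did not pass without OCP1 replicate 2 or 3 or OCP2 replicate 1 (adjusted p = 0.0534 to 0.0863), and that of OCP4 minus OCP1 (0.30, adjusted p = 0.0403) did not pass without any 1 of the 3 OCP1 or 4 OCP4 arrays (adjusted p = 0.0541 to 0.155). Chst15, which adds a second sulfate to 4-sulfated units, was lower in both CD73+ groups, at 10.53 in OCP1 and 10.54 in OCP4 against 10.90 in OCP2 and 10.84 in OCP3. Ust, the uronyl 2-O-sulfotransferase, was highest in OCP4 (11.11) and lowest in OCP3 (10.60). The dimmer probe set of Ust (mean 7.34) gave the same OCP4 minus OCP3 difference (0.50, adjusted p = 0.0311, against 0.51 for the brighter) but the opposite sign for OCP1 minus OCP2 (-0.27, adjusted p = 0.475, against 0.29).

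Sulfotransferases of keratan sulfate and related chains showed opposite patterns. Chst5, the mouse N-acetylglucosamine 6-O-sulfotransferase of corneal keratan sulfate, read 10.35, 10.31 and 10.36 in OCP1, 9.54, 9.48 and 9.81 in OCP2, 8.92, 8.67, 8.84 and 8.67 in OCP3, and 8.78, 8.84, 8.85 and 8.68 in OCP4. OCP1, OCP2 and the Thy1+ groups formed 3 steps, and only OCP3 and OCP4 overlapped. OCP1 exceeded OCP3 by 1.57 ± 0.08 (2.96-fold, adjusted p = 6.10e-09) and OCP2 by 0.73 ± 0.09 (1.66-fold, adjusted p = 0.000102), while the OCP4 minus OCP3 difference was 0.02 ± 0.08 (adjusted p = 0.903). Chst1, which sulfates the galactose of keratan sulfate, read 9.49, 9.48 and 9.42 in OCP1, 9.76, 9.56 and 9.44 in OCP2, 10.48, 10.46, 10.37 and 10.38 in OCP3, and 9.45, 9.64, 9.68 and 9.61 in OCP4. Only the OCP3 arrays stood apart, above OCP2 by 0.84 ± 0.07 (1.79-fold, adjusted p = 2.44e-06) and above OCP4, whose difference from OCP3 was -0.83 ± 0.07 (1.78-fold, adjusted p = 3.78e-07). Chst10, the HNK-1 sulfotransferase, read 9.30, 9.11 and 9.15 in OCP1, 9.03, 8.98 and 9.08 in OCP2, 8.87, 9.16, 8.99 and 9.13 in OCP3, and 9.75, 9.73, 9.84 and 9.74 in OCP4. It was higher in OCP4 than in OCP3 by 0.73 ± 0.07 (1.66-fold, adjusted p = 8.56e-07), and among the other 3 groups OCP3 overlapped both OCP1 and OCP2. Chst2 varied by only 0.25 log2 units, and Chst4, Chst8 and Chst9 did not pass the F-test.

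**Figure D2:**
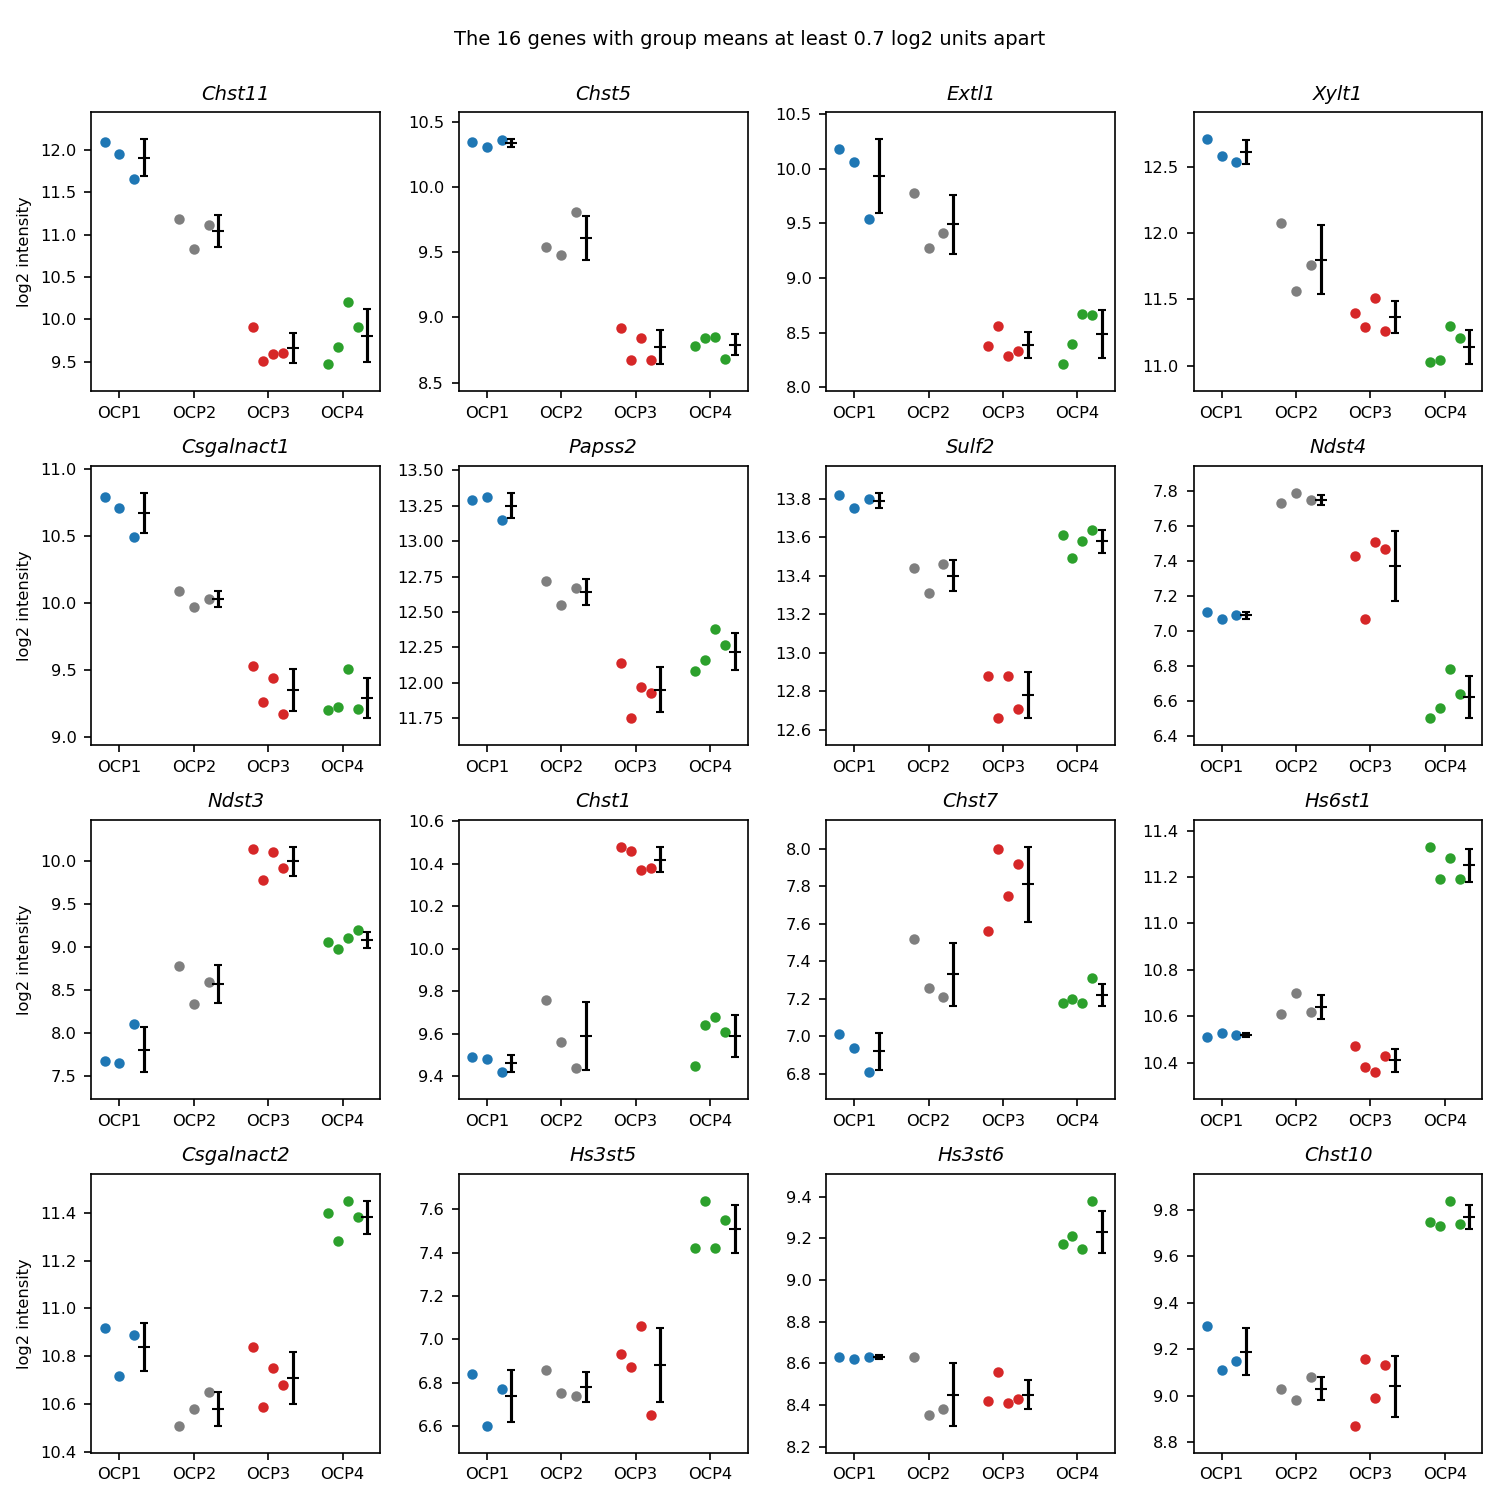
Log2 intensity of the 16 enzymes whose group means lay at least 0.7 log2 units apart, with 1 point per array and, beside each group, the mean and its SD (n = 3 for OCP1 and OCP2, n = 4 for OCP3 and OCP4). Vertical scales differ between panels. Panels are ordered by the highest group, and Chst11 spans the widest range, from 9.66 in OCP3 to 11.91 in OCP1.

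The heparan sulfate polymerases themselves were nearly level across the groups. Ext1 and Ext2, the co-polymerase subunits, ranged over 0.31 and 0.19 log2 units, with Ext1 lowest in OCP4 (11.80 ± 0.07, SD, n = 4) and Ext2 highest there (12.18 ± 0.05). Extl3, which adds the first N-acetylglucosamine of heparan sulfate, was lowest in OCP1 (11.51) and highest in OCP4 (11.83). Extl1, an exostosin-like glycosyltransferase, was the exception, with 10.18, 10.06 and 9.54 in OCP1, 9.78, 9.27 and 9.41 in OCP2, 8.38, 8.56, 8.29 and 8.33 in OCP3, and 8.21, 8.40, 8.67 and 8.66 in OCP4. All Thy1- arrays lay above all Thy1+ arrays, and OCP1 and OCP2 overlapped. OCP3 was below OCP2 by -1.10 ± 0.16 (2.14-fold, adjusted p = 0.000203) and OCP4 below OCP1 by -1.44 ± 0.16 (2.71-fold, adjusted p = 7.65e-06).

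Heparan sulfate modification enzymes differed between OCP4 and OCP3 in both directions. Of 16 such genes, 7 were higher and 4 lower in OCP4 than in OCP3, where 14.2% of all genes were higher and 13.6% lower. Of the 4 lower genes, only Ndst3 had its highest mean in OCP3, while Hs2st1, Hs6st2 and Ndst4 had it in OCP2. Hs6st1, a 6-O-sulfotransferase, read 10.51, 10.53 and 10.52 in OCP1, 10.61, 10.70 and 10.62 in OCP2, 10.47, 10.38, 10.36 and 10.43 in OCP3, and 11.33, 11.19, 11.28 and 11.19 in OCP4. Every OCP4 array exceeded every other array, with an OCP4 minus OCP3 difference of 0.84 ± 0.05 (1.79-fold, adjusted p = 6.98e-09) and an OCP4 minus OCP1 difference of 0.72 ± 0.05 (1.65-fold, adjusted p = 1.01e-07). Its relatives differed: Hs6st2 was lower in both CD73+ groups (10.32 in OCP1 and 10.21 in OCP4, against 10.75 in OCP2 and 10.62 in OCP3), and Hs6st3 ranged from 8.17 (OCP3) to 8.54 (OCP1).

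The 3-O-sulfotransferases Hs3st6 and Hs3st5 shared the OCP4 peak. Hs3st6 read 8.63, 8.62 and 8.63 in OCP1, 8.63, 8.35 and 8.38 in OCP2, 8.42, 8.56, 8.41 and 8.43 in OCP3, and 9.17, 9.21, 9.15 and 9.38 in OCP4. It exceeded OCP3 in OCP4 by 0.77 ± 0.07 (1.71-fold, adjusted p = 6.74e-07). Hs3st5 read 6.84, 6.60 and 6.77 in OCP1, 6.86, 6.75 and 6.74 in OCP2, 6.93, 6.87, 7.06 and 6.65 in OCP3, and 7.42, 7.64, 7.42 and 7.55 in OCP4. The OCP4 arrays were again separate (OCP4 minus OCP3 0.63 ± 0.08, 1.55-fold, adjusted p = 4.52e-05), although the mean over all arrays, 7.01, was under the olfactory receptor level. Hs3st3a1, in contrast, was lowest in OCP2 (8.78 ± 0.08, n = 3) and highest in OCP1 (9.35 ± 0.12, SD, n = 3), and Hs3st2 and Hs3st4 did not pass the F-test.

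The N-deacetylase/N-sulfotransferases, which open the way for the later sulfations, each had a pattern of their own. Ndst1, the broadly expressed member, averaged 12.66 ± 0.05 in OCP4 (SD, n = 4) against 12.05 to 12.16 elsewhere (OCP4 minus OCP3 0.56 ± 0.05, 1.47-fold, adjusted p = 4.14e-07), and Ndst2 did not pass the F-test. Ndst3 read 7.68, 7.65 and 8.11 in OCP1, 8.78, 8.34 and 8.59 in OCP2, 10.14, 9.78, 10.10 and 9.92 in OCP3, and 9.06, 8.98, 9.10 and 9.20 in OCP4. The 4 groups did not overlap at all, in the order OCP3, OCP4, OCP2, OCP1. OCP1 was below OCP3 by -2.18 ± 0.13 (4.52-fold, adjusted p = 1.57e-08), OCP3 above OCP2 by 1.42 ± 0.13 (2.67-fold, adjusted p = 2.47e-06) and OCP4 below OCP3 by -0.90 ± 0.12 (1.87-fold, adjusted p = 3.14e-05). Ndst4 read 7.11, 7.07 and 7.09 in OCP1, 7.73, 7.79 and 7.75 in OCP2, 7.43, 7.07, 7.51 and 7.47 in OCP3, and 6.50, 6.56, 6.78 and 6.64 in OCP4. It was highest in OCP2 and lowest in OCP4, each without overlap (OCP4 minus OCP2 -1.14 ± 0.09, 2.20-fold, adjusted p = 4.28e-07), at a mean level of 7.18, under the olfactory receptor level. Its OCP1 minus OCP3 difference (-0.28, adjusted p = 0.0395) did not pass without any 1 of 8 arrays (OCP1 replicates 1 to 3, OCP2 replicate 3, OCP3 replicates 1, 3 and 4, and OCP4 replicate 4, adjusted p = 0.0508 to 0.106). Hs2st1 was lowest in OCP4 (10.73, against 10.91 to 10.94), and the epimerase Glce did not pass the F-test.

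The endosulfatases, which remove 6-O-sulfates from heparan sulfate outside the cell, were both highest in OCP1. Sulf2 read 13.82, 13.75 and 13.80 in OCP1, 13.44, 13.31 and 13.46 in OCP2, 12.88, 12.66, 12.88 and 12.71 in OCP3, and 13.61, 13.49, 13.58 and 13.64 in OCP4. OCP1 was above and OCP3 below every other array, and each CD73+ group exceeded its CD73- counterpart, by 0.39 ± 0.07 in Thy1- cells (1.31-fold, adjusted p = 0.00215) and by 0.80 ± 0.06 in Thy1+ cells (1.74-fold, adjusted p = 1.49e-07). The smaller OCP4 minus OCP1 difference of Sulf2 (-0.21, adjusted p = 0.0258) did not pass without OCP1 replicate 1 or 3 or OCP4 replicate 2 (adjusted p = 0.0698 to 0.0974). Sulf1 ran from 12.26 ± 0.07 in OCP4 (SD, n = 4) to 12.69 ± 0.07 in OCP1 (n = 3), with OCP2 and OCP3 both at 12.49.

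Of the hyaluronan synthases, Has1 was lowest in OCP2 (9.60 ± 0.10, n = 3) and highest in OCP4 (10.30 ± 0.10, SD, n = 4, 1.62-fold, adjusted p = 1.03e-05). Has2, the synthase that limb development needs in mice, averaged 12.16 in OCP1, 12.39 in OCP2 and 12.33 in OCP4 and was lowest in OCP3 (11.87 ± 0.16, SD, n = 4). Its OCP3 minus OCP2 difference was -0.52 ± 0.08 (adjusted p = 0.000475). Has3 did not pass the F-test and lay under the olfactory receptor level.

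Comparisons of CD73+ with CD73- cells within each Thy1 gate asked which enzymes move with CD73. The gate did not hold the Thy1 level constant, since Thy1 was 0.61 ± 0.12 higher in OCP4 than in OCP3 (adjusted p = 0.000992). In Thy1- cells (OCP1 minus OCP2), 18 of the 53 enzymes passed (34.0%, against 11.0% of all genes), 13 of them higher (4.43% of all genes) and 5 lower (6.56%) in CD73+ cells, with a median log2 difference of 0.09 against -0.01 over all genes. In Thy1+ cells (OCP4 minus OCP3), 30 passed (56.6%, against 27.8%), 19 higher (14.2% of all genes) and 11 lower (13.6%), with a median of 0.06 against 0.04. These comparisons share no arrays, but both use 1 estimate of each gene's spread from all 14 arrays, so they are not fully independent. Higher in both were 7 enzymes (13.2%, against 1.77% of all genes), namely Chpf2, Chst12, Csgalnact2, Hs3st3b1, Papss2, Sulf2 and Ust, a count of 4 to 8 when single arrays were left out (4 without OCP1 replicate 1 or 3 or OCP2 replicate 2, when Csgalnact2, Hs3st3b1 and Ust did not pass), with Chpf2, Chst12 and Sulf2 kept throughout. Lower in both were Chst15, Chst7, Hs6st2, Ndst3 and Ndst4 (9.43%, against 2.91%), of which all but Chst7 were kept throughout. Sulf1 alone passed in opposite directions (1.89%, against 1.85%), 0.20 ± 0.06 higher in OCP1 than in OCP2 (adjusted p = 0.0337) and -0.24 ± 0.05 in OCP4 minus OCP3 (adjusted p = 0.00184), the former not past the threshold without OCP1 replicate 1 or 3 or any OCP2 array (adjusted p = 0.0547 to 0.133).

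Thy1+ cells had more enzymes lower than higher. Within the CD73+ gate the Nt5e level was not constant, since Nt5e was 0.90 ± 0.18 higher in OCP4 than in OCP1 (adjusted p = 0.00170). In CD73- cells (OCP3 minus OCP2), 20 of 53 passed (37.7%, against 16.1% of all genes), 5 higher (6.63%) and 15 lower (9.48%). In CD73+ cells (OCP4 minus OCP1), 31 passed (58.5%, against 26.3%), 13 higher (13.8%) and 18 lower (12.4%). These comparisons again share no arrays but share the estimate of the spread. Lower in both were 11 enzymes (20.8%, against 3.96% of all genes): Chpf, Chpf2, Chst11, Chst5, Chsy1, Csgalnact1, Extl1, Ndst4, Papss2, Sulf2 and Xylt1. That count was 8 to 11 when single arrays were left out, and Chpf2, Chst11, Chst5, Csgalnact1, Extl1, Ndst4 and Papss2 were kept throughout. Higher in both were Chst2, Chst7, Has1 and Ndst3 (7.55%, against 2.70%), a count of 2 to 4 with single arrays left out (2 without OCP1 replicate 1, 2 or 3 or OCP4 replicate 1, 2 or 4, when Chst2 and Chst7 did not pass), with Has1 and Ndst3 kept throughout. Chst14, Hs6st1 and Xylt2 passed in opposite directions, lower with Thy1 in CD73- cells and higher in CD73+ cells (5.66%, against 2.03%). Of these, only Hs6st1 kept the pattern whichever array was left out. Chst14 and Xylt2 both lost it on leaving out any 1 of most arrays (replicates 1 and 3 of OCP1, 2 and 3 of OCP2, 1, 3 and 4 of OCP3, and 1, 2 and 3 of OCP4). Leaving out OCP3 replicate 2 ended it for Chst14 as well, and leaving out OCP1 replicate 2 or OCP2 replicate 1 ended it for Xylt2.

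**Figure D3:**
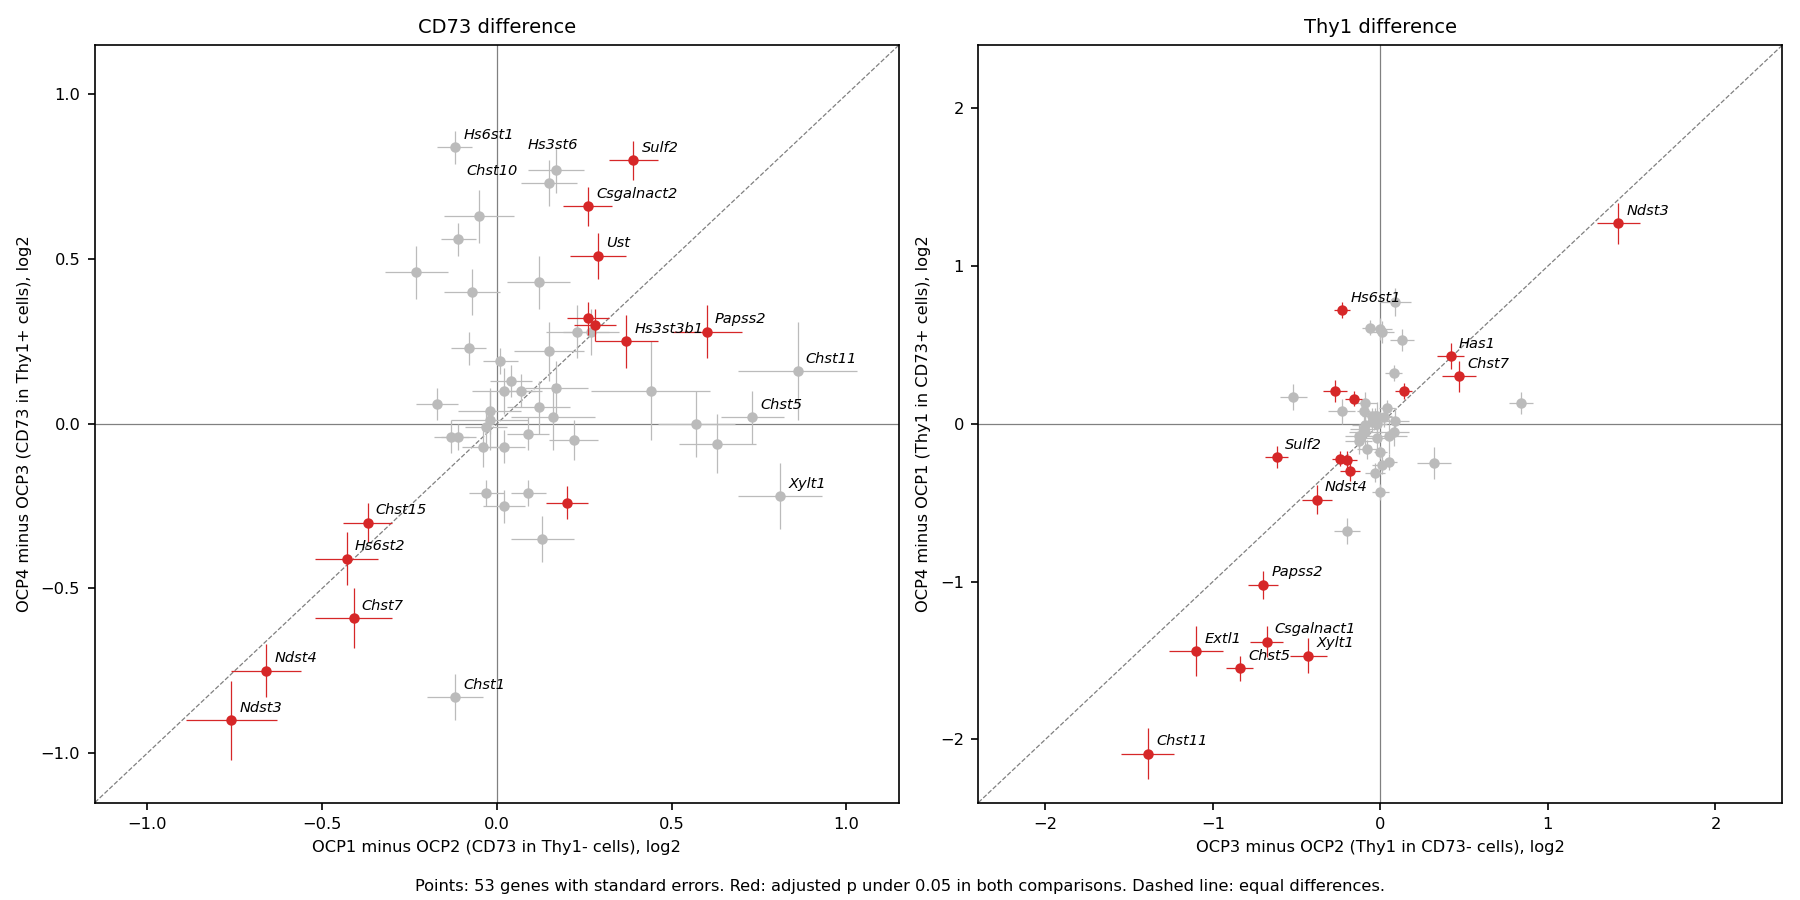
Log2 differences with their standard errors for the 53 enzymes, CD73+ minus CD73- (left, in Thy1- cells on the horizontal and Thy1+ cells on the vertical axis) and Thy1+ minus Thy1- (right, in CD73- cells on the horizontal and CD73+ cells on the vertical axis). Red points passed in both comparisons. Ndst3 lies at the lower left for CD73 and the upper right for Thy1, and Chst11 at the lower left for Thy1.

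The remaining pairs set groups that differ in both antigens side by side. Between double-positive and double-negative cells (OCP4 minus OCP2), 28 enzymes passed (52.8%, against 24.2% of all genes), 12 higher (10.4%) and 16 lower (13.8%). Between the single-positive groups (OCP1 minus OCP3), 26 passed (49.1%, against 24.4%), 18 higher (11.9%) and 8 lower (12.5%) in OCP1, with differences from -2.18 (Ndst3) to 2.25 (Chst11).

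Whether the CD73 difference depended on Thy1 was tested by the interaction, the OCP4 minus OCP3 difference minus the OCP1 minus OCP2 difference. It passed for 21 of 53 enzymes (39.6%, against 18.0% of all genes), 11 positive (9.96% of all genes) and 10 negative (8.05%). Hs6st1 had the largest positive value, 0.96 ± 0.07 (adjusted p = 6.46e-07), with a CD73 difference of 0.84 in Thy1+ cells and -0.12 in Thy1- cells. Has2 (0.69), Hs3st5 (0.68), Ndst1 (0.67), Hs3st6 (0.60), Chst10 (0.57), Chst14 (0.48), Sulf2 (0.41), Csgalnact2 (0.40), Xylt2 (0.31) and Extl3 (0.23) were also positive. Xylt1 had the most negative value, -1.03 ± 0.15 (adjusted p = 0.000269), with CD73 differences of 0.81 in Thy1- cells and -0.22 in Thy1+ cells. Chst5 (-0.72), Chst1 (-0.71), Chst11 (-0.70), Csgalnact1 (-0.70), Hs3st3a1 (-0.57), Chsy3 (-0.48), Sulf1 (-0.43), Chst3 (-0.30) and Ext1 (-0.27) were also negative. The calls for Chst11, Ext1 and Extl3 each ended without any 1 of 10, 6 and 10 arrays respectively (adjusted p = 0.0515 to 0.119, 0.0520 to 0.0973 and 0.0623 to 0.114).

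**Figure D4:**
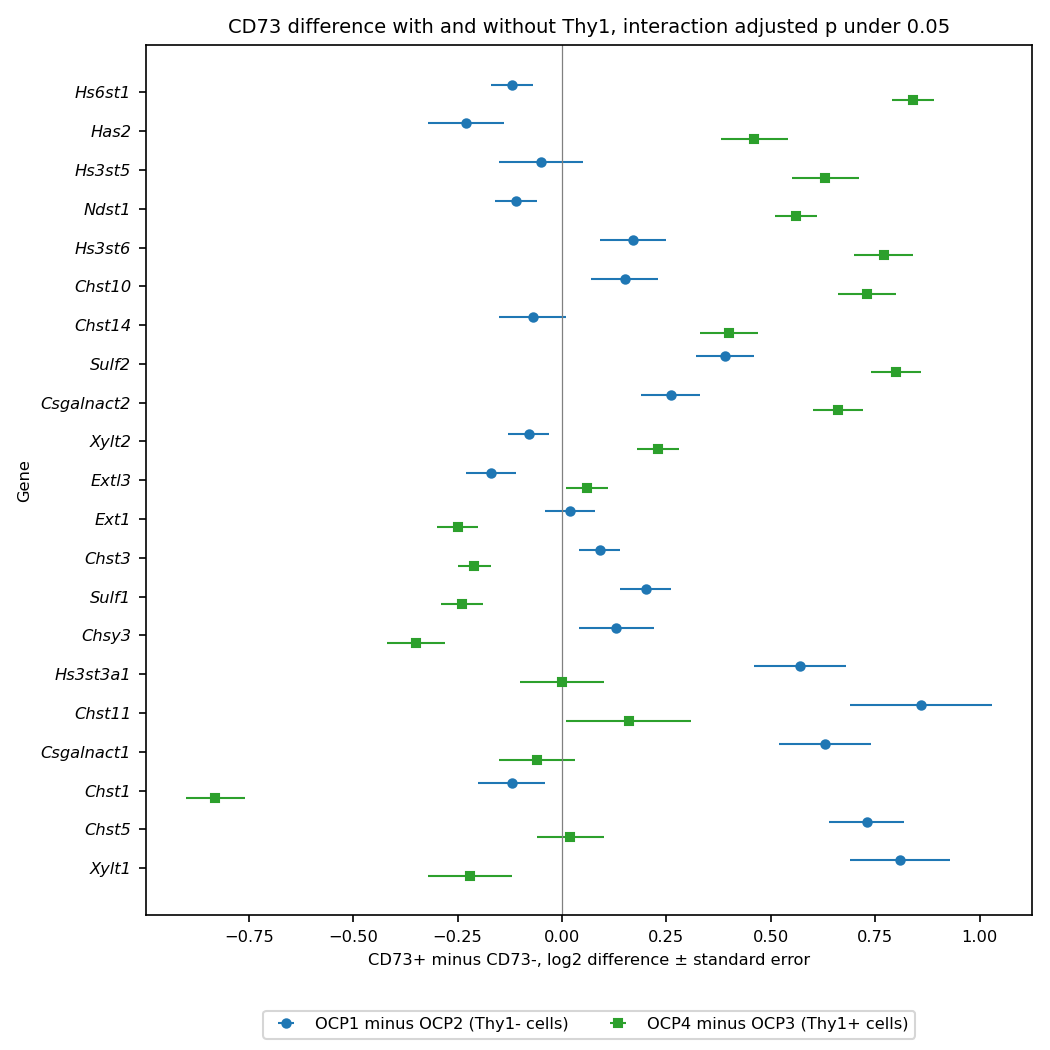
CD73+ minus CD73- log2 difference with its standard error in Thy1- cells (blue circles) and Thy1+ cells (green squares) for the 21 enzymes with an interaction adjusted p under 0.05, ordered by the interaction. Hs6st1 at the top differs in Thy1+ cells (0.84) and Xylt1 at the bottom in Thy1- cells (0.81).

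Genes around the enzymes in the same pathway were described from 6 lists. In the OCP1 minus OCP3 comparison, 11.9% of all genes were higher and 12.5% lower. Of 5 linkage region genes found (Acpl2 stands for Pxylp1), 4 were higher in OCP1 than in OCP3 and none were lower, with a median difference of 0.27 against 0.03 over all genes. Fam20b, the xylose kinase of the linker, averaged 11.91 in OCP1, 11.65 in OCP2, 11.25 in OCP3 and 11.32 in OCP4. Of 16 sugar nucleotide and sulfate supply genes found, 7 were higher and 1 lower in OCP1 than in OCP3. The sulfate transporter Slc26a2 averaged 11.35, 10.75, 10.37 and 10.46 in OCP1 to OCP4 (OCP1 minus OCP2 adjusted p = 9.72e-05), and the nucleotide sugar transporter Slc35d1 averaged 10.40, 9.76, 9.55 and 9.27 (adjusted p = 0.000647), so both were highest in OCP1.

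Genes of core proteins and of degradation were counted against all genes, of which 4.43% were higher and 6.56% lower in OCP1 than in OCP2, and 14.2% higher and 13.6% lower in OCP4 than in OCP3. Of 18 chondroitin sulfate core and hyaluronan-binding genes, 5 were higher and 1 lower in OCP1 than in OCP2, and 6 were higher and 5 lower in OCP4 than in OCP3. Acan, encoding aggrecan, averaged 13.69, 12.75, 11.85 and 11.48 in OCP1 to OCP4. Hapln3, a link protein, averaged 9.55 in OCP4 against 7.86 to 8.11 elsewhere (OCP4 minus OCP3 adjusted p = 8.02e-09), and Lyve1, a hyaluronan receptor, was highest in OCP3 (11.76, OCP3 minus OCP2 adjusted p = 7.34e-05). Of 13 heparan sulfate core genes, 2 were higher and 6 lower in OCP4 than in OCP3. Sdc3 averaged 11.47 in OCP4 and 12.09 in OCP3 (adjusted p = 8.98e-07), Col18a1 9.91 and 11.19 (adjusted p = 9.61e-08), and Sdc4 peaked in OCP1 (11.62, against 10.25 to 10.78). Of 8 keratan sulfate chain and core genes, 5 were higher and none lower in OCP1 than in OCP2, among them Fmod (13.86 against 13.13, adjusted p = 0.000107), while Omd was highest in OCP3 (10.21, against 7.92 to 8.72). Of 20 degradation genes found, 6 were higher and 4 lower in OCP4 than in OCP3. In OCP1, 10 of the 20 were higher than in OCP3 and none were lower, against 11.9% and 12.5% of all genes. Hpse, the heparanase that cuts heparan sulfate, was highest in OCP4 (10.26 ± 0.16, SD, n = 4, against 9.05 to 9.63, OCP4 minus OCP3 adjusted p = 0.000260).

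Cartilage markers were also highest in OCP1. All 13 genes of the cartilage list were found, and their summed linear intensity per array was 82806 to 97802 in OCP1, 43781 to 55862 in OCP2, 15865 to 21244 in OCP3 and 16694 to 26323 in OCP4. The order of the means, OCP1, then OCP2, then the Thy1+ groups, was also that of 9 of the 17 enzymes highest in OCP1 (52.9%, against 62.0% of all such genes past the F-test), namely Chpf, Chst11, Chst5, Chsy3, Csgalnact1, Ext1, Extl1, Papss2 and Xylt1. Of the 9, Chpf, Chsy3, Ext1 and Extl1 did not differ between OCP1 and OCP2 by limma (adjusted p = 0.122 to 0.912). Chsy3 and Ext1 also did not differ between OCP2 and OCP3 (adjusted p = 0.117 and 0.762). The other 8, Chpf2, Chst3, Hs3st3a1, Hs3st3b1, Hs6st3, Sulf1, Sulf2 and Ugdh, had OCP3 or OCP4 second. Apart from Hs3st3a1 and Hs3st3b1, the second mean of these was not separated from OCP2 by limma (adjusted p = 0.0669 to 0.987). Sox9 averaged 13.01, 12.47, 11.24 and 11.10, and Col2a1 13.55, 12.80, 11.25 and 11.66 in OCP1 to OCP4. The hypertrophic chondrocyte list (7 of 7 found) summed to 30258 to 34385 in OCP1, 8025 to 9958 in OCP2, 18273 to 19638 in OCP3 and 13522 to 16953 in OCP4. The sum of the osteoblast list (9 of 9 found) was also highest in OCP1, at 42204 to 44339 against 31507 to 37083. Such sums weigh bright genes most, and single genes of both lists peaked elsewhere. Gene by gene, 5 hypertrophic genes were higher and 1 lower in OCP1 than in OCP3. For the osteoblast list, 4 were higher and 2 lower (11.9% of all genes were higher and 12.5% lower). The lower hypertrophic gene was Alpl, at 11.60 in OCP1 against 12.93 in OCP3 (adjusted p = 9.02e-07). The lower osteoblast genes were the transcription factors Runx2 and Sp7, singled out after their values were seen. They were highest in OCP3, at 11.62 and 10.58 against 11.00 and 9.85 in OCP1 (adjusted p = 0.000132 and 7.29e-05). In sorted bulk samples such as these, fewer cells of a type and less RNA per cell cannot be told apart, and the part of cell composition in the enzyme differences was not tested.

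Pericyte and smooth muscle markers were highest in OCP3, as were Ndst3, Chst1 and Chst7. Their summed intensity (10 of 10 found) was 72420 to 85396 in OCP3, 29993 to 33136 in OCP2, 21570 to 26302 in OCP1 and 23485 to 27702 in OCP4, and Rgs5, a pericyte marker, averaged 13.28 in OCP3 against 8.58 to 10.58. Outside OCP3, the sums were higher in OCP2 than in OCP4. Ndst3 was instead 0.51 higher in OCP4 than in OCP2 (adjusted p = 0.00706), and Chst1 differed there by 0.01 (adjusted p = 0.955). Chst7, like the sums, had a higher mean in OCP2 (7.33) than in OCP4 (7.22), but that difference did not pass by limma (adjusted p = 0.476). Endothelial sums (10 of 10) were 7881 to 8947 in OCP1, 17059 to 28229 in OCP2, 16129 to 20933 in OCP3 and 11463 to 13958 in OCP4. Schwann and nerve sums (8 of 8) were 11822 to 15270 in OCP2 and 13347 to 17413 in OCP3, against 4198 to 5069 in OCP1 and 3844 to 5638 in OCP4. Both sums were lower in each CD73+ group than in either CD73- group. So were the means of Hs6st2, Chst15, Ndst4 and Chst7 (for Chst7 without a passing difference between OCP4 and OCP2), but not of Ndst3. The part of endothelial and Schwann cells in those enzyme differences was not tested. Of 91 marker genes found, 3 had all OCP4 arrays above all others, as Hs6st1, Ndst1, Hs3st5, Hs3st6, Csgalnact2 and Chst10 did. That is 3.30%, below the 6.76% of all genes with this pattern. The 3 came from different lists and were named after their values were seen: Sox18 (endothelial), Pth1r (hypertrophic chondrocyte) and Pparg (adipocyte). Sox18 averaged 11.26 in OCP4 against 9.17 to 10.01, Pth1r 12.62 against 11.08 to 11.68 and Pparg 11.44 against 10.59 to 11.08.

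**Figure D5:**
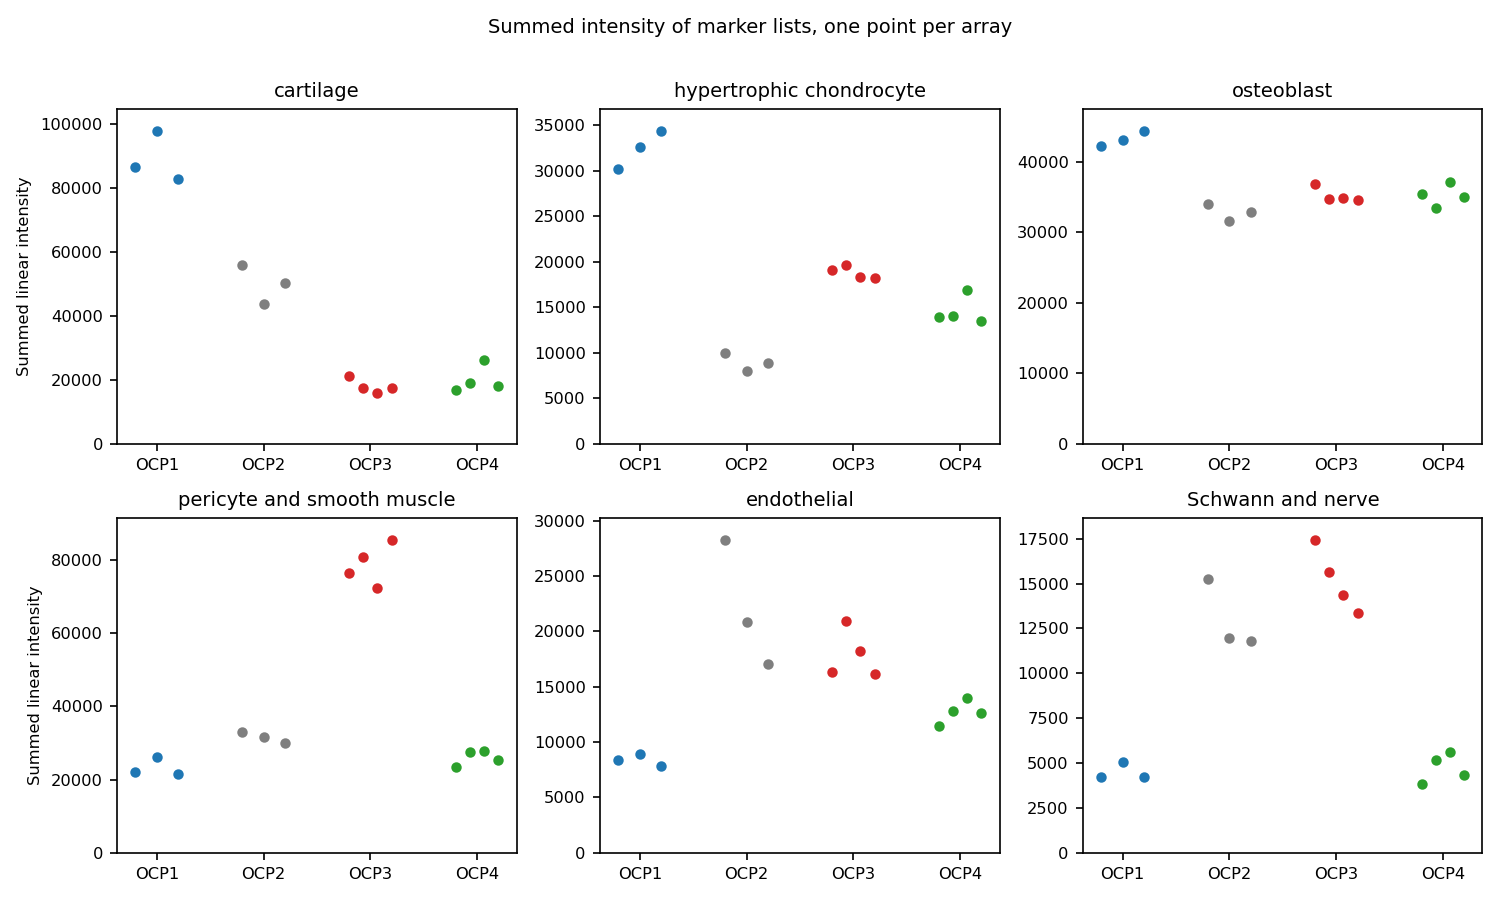
Summed linear intensity of 6 marker lists (vertical axes from 0, scales differ), 1 point per array, by sorted group. The cartilage panel falls from 82806 or more in OCP1 to 26323 or less in OCP3 and OCP4, and the pericyte and smooth muscle panel has OCP3 at 72420 or more and every other array at 33136 or less.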

How the data were processed

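Expression in sorted limb cells (C57BL/6 mice, embryonic day 16.5) was profiled with 14 Affymetrix Mouse Gene 1.0 ST arrays. Per the labels' protocols, limbs were digested with collagenase and dispase and biotin-labelled cRNA was made from 1 µg of total RNA. The deposited value table holds linear intensities for 35556 probe sets, and the submitters' processing notes name RMA and limma without versions or roles. The genome build of the array annotation is not given in the sources used here. A deposited comparison table by the authors (log2 differences, mean log2 levels and adjusted p-values) supplied the gene symbols. Its mean log2 levels matched the log2 of the value table to 5.00e-08.

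The log2 of each intensity was taken here, with no pseudocount. The planned tests had assumed log2 values, and the linear scale was the sole change. The brightest probe set by mean log2 level stood for each of 21734 symbols, and only Ust had a second probe set among the enzymes (54 probe sets for 53 genes). limma 3.58.1 (R 4.3.3, statmod 1.5.0) was fitted with 1 mean per group over all 14 arrays (10 residual degrees of freedom), eBayes defaults and Benjamini-Hochberg adjustment over all genes. The adjusted p threshold was 0.05. Enzymes past the F-test with group means at least 0.7 log2 units apart are given array by array, and those past the interaction test are named. Other pathway and marker genes are named at up to 4 a list, apart from Acan, Sox9, Col2a1 and the sort markers. The enzymes, pathway lists, marker lists and promoter motifs were chosen with earlier results of these data known. The fit was checked on simulated data. Promoters are from RefSeq (GRCm38.p6). Alternatives covered scaling, probe set choice, filtering of dim genes, pseudocount, variance prior, array weights, a replicate block, fits of the compared groups alone and leaving out each array.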

Additional observations from a re-analysis of the deposited data

Results flagged for a closer look

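The CD73 difference itself changed with Thy1 (interaction adjusted p under 0.05 by limma) for 21 enzymes. The values, as the log2 difference in Thy1+ cells minus that in Thy1- cells, were 0.96 for Hs6st1, 0.69 for Has2, 0.68 for Hs3st5, 0.67 for Ndst1, 0.60 for Hs3st6, 0.57 for Chst10, 0.48 for Chst14, 0.41 for Sulf2, 0.40 for Csgalnact2, 0.31 for Xylt2 and 0.23 for Extl3. On the negative side they were -1.03 for Xylt1, -0.72 for Chst5, -0.71 for Chst1, -0.70 for Chst11, -0.70 for Csgalnact1, -0.57 for Hs3st3a1, -0.48 for Chsy3, -0.43 for Sulf1, -0.30 for Chst3 and -0.27 for Ext1.

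Among the 106 sets of 4 arrays examined (53 enzymes in OCP3 and in OCP4), 9 held 1 array set apart from the others, with a gap over the set's range above Dixon's critical value. Chance gives about 1 in 20 such sets. In OCP3 these were Chst2 in replicate 3 (10.55), Extl3 in replicate 1 (11.85), Hs3st1 in replicate 3 (9.22), Hs3st3a1 in replicate 1 (9.34) and Hs3st6 in replicate 2 (8.56). In OCP4 they were Csgalnact1 in replicate 3 (9.51), Hs6st2 in replicate 1 (10.01), Hs6st3 in replicate 1 (8.26) and Ndst1 in replicate 3 (12.58).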

How the results depend on the processing

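Each comparison was repeated under 24 alternative settings, including the omission of each array in turn. No enzyme difference that passed changed sign in any of them, and no count of enzymes called in a single comparison moved by over 1.5 times. Counts of enzymes passing in both comparisons of an antigen did: over the settings, CD73 higher in both ran from 4 to 10 (7 reported), CD73 lower in both from 3 to 5 (5), CD73 opposite from 0 to 2 (1), Thy1 higher in both from 2 to 4 (4) and Thy1 opposite from 1 to 3 (3). The low of 3 for CD73 lower in both came from the filter of dim genes, which removed Chst7 and Ndst4 before testing. With single arrays left out, the counts per comparison ran from 14 to 21 for OCP1 minus OCP2 (18 reported), 28 to 30 for OCP4 minus OCP3 (30), 15 to 20 for OCP3 minus OCP2 (20), 26 to 30 for OCP4 minus OCP1 (31), 25 to 29 for OCP4 minus OCP2 (28), 21 to 27 for OCP1 minus OCP3 (26), 18 to 22 for the interaction (21) and 40 to 42 for the F-test (41). Over the other settings the widest range was 14 to 26, for OCP1 minus OCP2. Of 215 single enzyme calls over these tests, 181 passed under every setting in which they were tested and 34 did not under at least 1. The filter of dim genes left out the 6 enzymes under the olfactory receptor level. Fits of the compared groups alone had no interaction or F-test. Over all genes, the OCP1 minus OCP2 count of 2388 became 1477 without OCP1 replicate 1 and 1486 without OCP2 replicate 2. Same-numbered arrays did not deviate together as a set (r = -0.419 to 0.395, median 0.057, over 19 pairs, 8 of them over 0.1). The 54 pairs with different numbers had r = -0.455 to 0.434 (median 0.013, 18 over 0.1). The numbers were therefore not taken as pairs, and pairing under other numbers was not tested. With the replicate number as a block, 17, 29, 17 and 29 enzymes passed for OCP1 minus OCP2, OCP4 minus OCP3, OCP3 minus OCP2 and OCP4 minus OCP1, and 19 for the interaction. Ndst4 was not past the threshold for OCP3 minus OCP2 after renewed quantile normalization (adjusted p = 0.061). Extl1, at 0.44 (adjusted p = 0.122) for OCP1 minus OCP2, passed with array weights, without OCP1 replicate 3 and without OCP2 replicate 1. Signal over background limits Chst4, Chst7, Chst9, Has3, Hs3st5 and Ndst4, the 6 enzymes under the olfactory receptor level.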

Other observations

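The 7 enzymes that were highest in OCP1 with group means at least 0.7 log2 units apart (Chst11, Chst5, Extl1, Xylt1, Csgalnact1, Papss2 and Sulf2) also differed among arrays of a group. In OCP4, replicate 3 was the highest of 4 arrays for 6 of the 7, all but Sulf2. It had the highest cartilage marker sum of its group (26323), but also the highest sum for 8 of the 11 marker lists and the highest median log2 level (9.003). In OCP2, replicate 1 was the highest of 3 arrays for 5, all but Chst5 and Sulf2. It too had the highest cartilage sum (55862), the highest sum for 7 of the 11 lists and the highest median (9.062). In OCP3, replicate 1 had the highest cartilage sum (21244) and was the highest of 4 arrays for Chst11, Chst5, Csgalnact1 and Papss2. It had the highest sum for 4 of the 11 lists. In OCP1, replicate 2 had the highest cartilage sum (97802) and was the highest of 3 arrays for Papss2 alone. It had the highest sum for 8 of the 11 lists. Neither of these arrays had the highest median of its group. These counts were chosen after the values were seen and are given as a description, without a test.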
